A study of Mus musculus with 16 samples.

Results

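The genes described here encode the nuclear-encoded subunits of oxidative phosphorylation (OXPHOS), measured in mouse liver. Members were chosen by name alone. They are all gene symbols of the deposited table that start with Nduf followed by a, b, c, s or v and a digit (complex I), the Sdha to Sdhd genes (complex II), symbols starting with Uqcr (complex III), Cox4 to Cox8 followed by a, b or c (complex IV), and symbols starting with Atp5 (complex V). This rule found 82 of the 20826 symbols in the table: 37 in complex I, 4 in complex II, 8 in complex III, 16 in complex IV and 17 in complex V. A few carry the prefix without being a standard subunit of that complex and were kept under it: Atp5s (coupling factor B), Atp5sl, Cox7a2l, Ndufa4l2 and Ndufa4, which is now placed in complex IV. The livers came from 16 male C57BL/6J mice, labelled as 4 weeks old and fed for 18 weeks, in 4 groups of 4. N mice were given normal food containing 10% fat, and HF mice were given high-fat food containing 45% fat. NW and HFW mice had the respective food supplemented with 1% WEPAK, which is made from Pacific krill. The labels name no other treatment and no altered allele, and no mouse gave more than 1 library.

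OXPHOS is the process by which mitochondria turn the energy of nutrients into ATP. Complexes I and II pass electrons from NADH and succinate to ubiquinone, complex III passes them on to cytochrome c, and complex IV passes them to oxygen. Complexes I, III and IV pump protons across the inner membrane, and complex V, the ATP synthase, uses the returning protons to make ATP. The catalytic cores of complexes I, III and IV include proteins made from mitochondrial DNA, while the genes described here are transcribed in the nucleus. In the liver it also takes up the electrons released when fatty acids are oxidized.

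Transcripts were counted by SuperSAGE, in which cDNA is cut with NlaIII and a short tag beside the cut nearest the poly(A) end stands for 1 molecule. Libraries held 56684 to 149464 tags, and the HF libraries (91526 to 149464) were the deepest as a group. Levels are given as CPM, tag counts scaled to the normalized library size, as counts per 1e+06. Since a transcript gives 1 tag whatever its length, levels of different genes are set side by side without a length correction. Only 1046 genes of the table, 6 of them members, had enough tags for the test. Of 10 hepatocyte markers 10 had tags in these livers, 8 of 8 adipocyte markers were at 0, and 7 skeletal muscle markers held 8 tags in all, with Myl1, Tnnt3, Mb and Actn3 at 0. In such bulk tissue, fewer cells of a type and less RNA per cell cannot be told apart.

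The tags behind the results were read from GENCODE M21 transcripts (build GRCm38) as the NlaIII site nearest the 3′ end and the 22 bases after it. The deposited table gives counts per transcript and no tag letters, so these are the tags the transcripts would give. Capitals mark the NlaIII site. The tags shown are those of the 6 tested members and of Sdha, the most abundant member of complex II, all matching no other GENCODE gene.
Ndufb9: CATGcttgcaagtgagagtttcagag
Ndufb7: CATGaaggagtttgaacgtgagcggc
Sdha: CATGccctgacttccttgaaatgaag
Uqcrfs1: CATGggtcacactatgacgcctctgg
Cox6b1: CATGatgcaactactaataaaaactc
Atp5b: CATGcaggccacacaagagccttgat
Atp5j2: CATGgccgagcataactgcccgcccc
The Ndufb9 tag lies in the 3′ UTR at chr15:58939426-58939451 on the plus strand, and the Atp5b tag in the 3′ UTR at chr10:128090187-128090212, also on the plus strand. The Ndufb7 tag is coding, at chr8:83571445-83571470 on the plus strand, and the Uqcrfs1 tag is coding, at chr13:30540816-30540841 on the minus strand. The tags of Sdha (chr13:74322300-74322325), Cox6b1 (chr7:30616986-30617011) and Atp5j2 (chr5:145183790-145183815) lie in 3′ UTRs on the minus strand. None of these 7 sites lies in the exons of another annotated gene.

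The members held 4178 of the 1379164 tags in named genes. At least 1 tag was found for 56 members (68.3%, beside 48.8% of all symbols), and 26 members had 0 tags in all 16 libraries. A count of 0 over all libraries allows a level of up to 2.18 CPM, a limit that covers counting error only. A further 25 members had 1 to 9 tags, and 31 had 10 or more. Ndufb9 alone gave 1312 tags, followed by Atp5j2 with 451, Ndufb7 with 405, Atp5b with 304, Cox6b1 with 167 and Uqcrfs1 with 156. Complex I held 50.8% of the members' tags, and 61.9% of its tags were those of Ndufb9. The most abundant member took 43.6% of the tags of complex II (Sdha), 42.7% of complex III (Uqcrfs1), 45.9% of complex IV (Cox6b1) and 43.7% of complex V (Atp5j2).

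**Figure D1:**
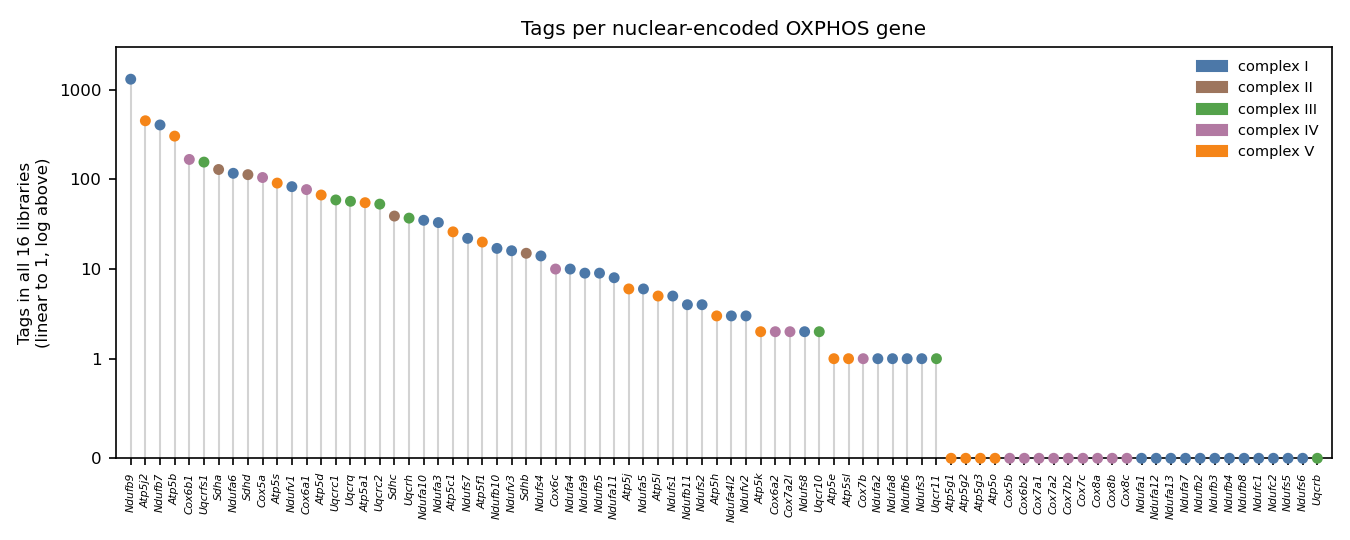
Tags of each of the 82 members in all 16 libraries together (vertical axis, linear from 0 to 1 and logarithmic above), ordered from the most to the least abundant and coloured by complex. Ndufb9 stands above the rest with 1312 tags, and 26 members lie at 0.

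Subunits of 1 complex are present in the assembled enzyme in fixed proportions, but their tags were far apart. In complex V, the catalytic beta subunit Atp5b had 304 tags and its partner in the F1 head, the alpha subunit Atp5a1, had 55. The c-ring genes Atp5g1, Atp5g2 and Atp5g3 and the stalk subunit Atp5o had 0 tags. In complex I, the NADH-oxidizing subunit Ndufv1 had 83 tags, its neighbour Ndufv2 had 3 and the iron-sulfur subunit Ndufs1 had 5. The last NlaIII site of Ndufs1 lay 13 bases from the end, too close for a full tag, so its count does not give its level. In complex III, the core proteins Uqcrc1 and Uqcrc2 had 59 and 53 tags, and Uqcrb had 0.

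The position of the NlaIII site bears on these counts. Of the 26 members with 0 tags, 1 (Cox7a2) had no NlaIII site in its transcripts, and 2 (Cox8b and Uqcrb) had their last site within 26 bases of the end, too close for a full tag. A further 5 (Atp5g2, Cox5b, Cox7c, Ndufb8 and Ndufs6) had only tags that other annotated genes also carry. The other 18 had a tag of their own in at least 1 transcript. Among these 18 was Atp5g1, although the tag of the Atp5g1 transcript with the lowest RefSeq number is found in 22 other genes. Tags were shared for 21.7% of the members with 0 tags that could be judged, for 4.55% of those with 1 to 9 tags and for 3.23% of those with 10 or more. Over all genes these shares were 10.5%, 3.61% and 4.45%. Of the members with 1 to 9 tags, 3 (Atp5e, Ndufs1 and Uqcr10) also had their last site within 26 bases of the end. How the authors treated tags found in several transcripts is not given in the sources used here, and the part of shared tags in the zeros was not tested. The shared tag of Cox7c, a small complex IV subunit with 0 tags, and the unshared tags of Cox8a, the liver form of subunit 8 that also had 0, and of Cox6a1, which had 77, are shown for comparison, with capitals at the NlaIII site as before.
Cox7c: CATGttgggccagagtatccggaggt
Cox8a: CATGtattggctctgcttggtggggt
Cox6a1: CATGtgaacccacttccgaccggcta
The Cox7c tag lies at chr13:86046651-86046676 on the minus strand, across the 5′ UTR and the coding sequence, and an annotated pseudogene carries it too. The Cox8a tag is in the 3′ UTR at chr19:7215197-7215222 and the Cox6a1 tag is coding, at chr5:115345856-115345881, both on the minus strand. Members with 0 tags had short transcripts, with a median length of 559.5 bases. The median was 875 bases for members with 1 to 9 tags and 1166 bases for those with 10 or more.

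Several complex IV and V subunits have a form used in most tissues or in liver and another used in muscle, heart or testis. Cox6a1, the form found in liver, had 77 tags, and the heart and muscle form Cox6a2 had 2. Cox6b1 had 167 tags and the testis form Cox6b2 had 0, while Cox7b had 1 tag and Cox7b2 had 0. For the pairs Cox7a1 and Cox7a2, and for Cox8a, Cox8b and Cox8c, all forms were at 0, so these data do not order them. Of the 6 tags of Atp5j, a peripheral stalk subunit of complex V, 5 came from a row for a non-coding transcript.

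WEPAK was added to each diet, so its effect was tested within each diet and as the mean over both. Over both diets, Ndufb9 and Atp5j2 were lower with WEPAK, by −0.69 and −0.73 on the log2 scale, in 8 of 8 WEPAK mice against the mean of their diet's controls. These were 2 of the 6 tested members, both lower, where 31.3% of the 1046 genes tested passed in either direction 16.1% passed as lower and 15.2% as higher. The other 4 tested members, Ndufb7, Uqcrfs1, Cox6b1 and Atp5b, did not pass. Within a diet edgeR's quasi-likelihood test called 0 members, both in NW against N, where 11% of all tested genes passed, and in HFW against HF, where 9.85% passed. At an unadjusted p under 0.05 there were 2 of the 6 members in NW against N, beside 298 of the 1046 genes, and 3 in HFW against HF, beside 299. DESeq2 and limma-voom called 0 in each. The difference between both WEPAK effects was tested as an interaction: 0 members and 0% of all tested genes passed, with 0 members at an unadjusted p under 0.05, beside 26 genes, and DESeq2 and limma-voom also called 0 members.

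**Figure D2:**
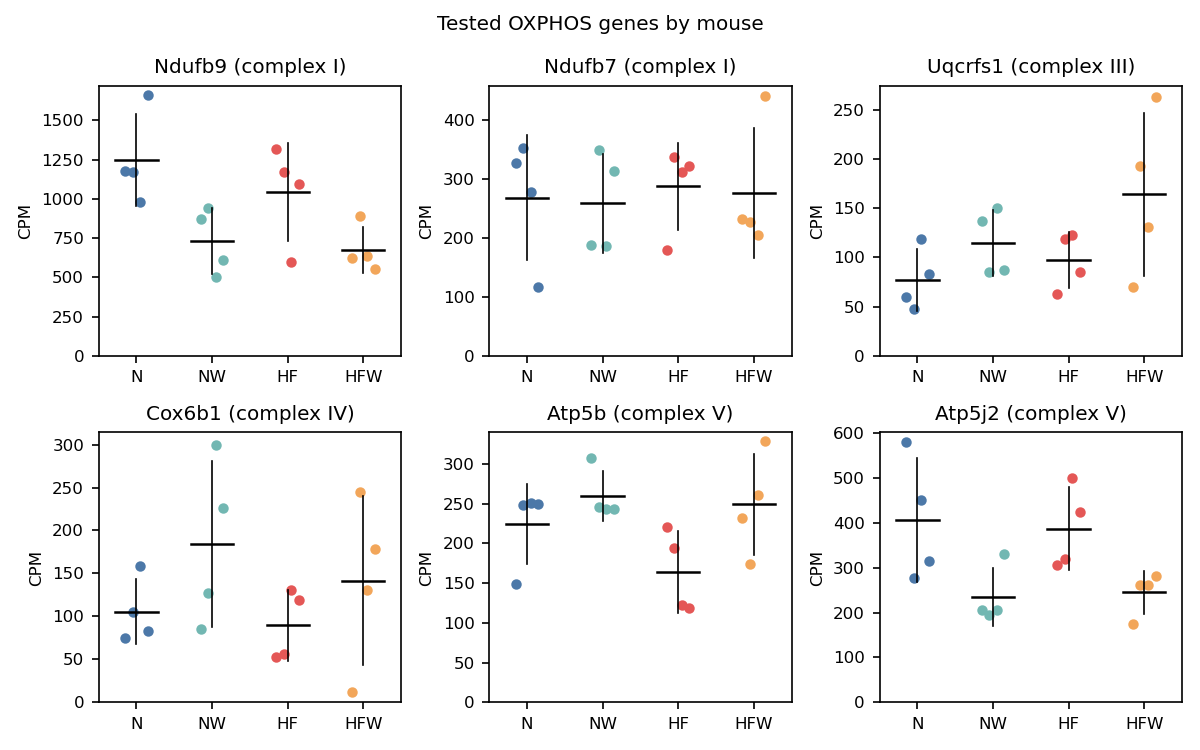
Level of each of the 6 tested members in CPM (vertical axis from 0) for the 4 mice of each group, with the mean as a horizontal line and the SD as a vertical line. For Ndufb9, the 4 NW mice sit between 505.6 and 943.1, all below the N mice, and for Atp5j2 the 4 HFW mice sit between 174 and 281.8, all below the HF mice.

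Complex I held 2 of the tested members. Ndufb9 is an accessory subunit of the membrane arm of complex I. Its level was 1175, 1173, 979.4 and 1661 CPM in N mice 4, 5, 7 and 8, and 870.1, 943.1, 505.6 and 608.4 CPM in NW mice 11, 12, 15 and 20. It was 1316, 1170, 597.8 and 1094 CPM in HF mice 23, 25, 28 and 29, and 626.5, 891.2, 633.5 and 554.3 CPM in HFW mice 34, 36, 38 and 40. All 4 NW mice lay below all 4 N mice, while HF mouse 28 lay among the HFW mice. Mean levels were 1247 ± 291 CPM for N and 732 ± 208 for NW, and 1044 ± 312 for HF and 676 ± 148 for HFW (SD, n = 4 each). The mean WEPAK effect was −0.69 on the log2 scale (SE 0.20, 95% interval −1.09 to −0.30, adjusted p = 0.00877, edgeR). It was −0.75 (SE 0.28, adjusted p = 0.0709) in NW against N and −0.63 (SE 0.28, adjusted p = 0.130) in HFW against HF. Without HF mouse 28 the latter was −0.84 and passed (adjusted p = 0.0377), in a run where 150 genes passed. The mouse left out had the lowest HF value of Ndufb9, so that call adds no support of its own. With each library thinned to 56655 tags the mean WEPAK effect was −0.56 (adjusted p = 0.0372).

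Hepatocyte and endothelial markers moved with the groups beside this result. The summed level of the 10 markers was 63994 to 90994 CPM for N, 90153 to 109934 for NW, 57124 to 68251 for HF and 58371 to 84504 for HFW. The 9 endothelial markers, all with tags, summed to 297.5 to 383.8 CPM for N, 356.9 to 451.9 for NW, 262.8 to 352.1 for HF and 354.0 to 487.3 for HFW. Ndufb9 was lower with WEPAK while both marker lists had the higher mean in the WEPAK group of either diet, and their part in the result was not tested.

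Ndufb7, another accessory subunit of the membrane arm, did not pass in any comparison. It stood at 327.3, 352.8, 277.9 and 116.3 CPM in N, at 187.7, 348.4, 187.2 and 312.9 CPM in NW, at 179, 337.9, 311.2 and 322.1 CPM in HF, and at 232, 227.2, 204.9 and 441.5 CPM in HFW, in the same order of mice. Each group spanned much of the range of the others. The mean WEPAK effect was −0.03 (SE 0.24, 95% interval −0.51 to 0.44, adjusted p = 0.932), and its sign turned when single mice were left out.

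Complex II had no member in the test. The flavoprotein subunit Sdha, which oxidizes succinate, gave 2, 5, 8 and 11 tags in the N mice, 9, 15, 9 and 5 in NW, 8, 9, 13 and 12 in HF, and 5, 6, 4 and 8 in HFW. The groups overlapped throughout. Sdhd, a membrane anchor subunit, held 113 tags, the other anchor Sdhc held 39, and the iron-sulfur subunit Sdhb held 15. All 4 genes of complex II had tags, and together they gave 203 ± 82.7 CPM for N, 242 ± 56.5 for NW, 206 ± 46.2 for HF and 189 ± 62.9 for HFW (SD, n = 4 each), differences within the spread of the mice.

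In complex III, the Rieske iron-sulfur protein Uqcrfs1, which carries electrons from ubiquinol toward cytochrome c, had higher means in the WEPAK groups without passing the test. Its level was 59.5, 47.7, 119.1 and 83.1 CPM in N and 136.5, 85, 149.8 and 86.9 CPM in NW. It was 63.2, 118.9, 122.8 and 84.8 CPM in HF and 69.6, 192.2, 130.4 and 263 CPM in HFW. Values overlapped in both diets, with N mouse 7 among the NW mice and HFW mouse 34 near the bottom of the HF range. The mean WEPAK effect was 0.64 (SE 0.31, 95% interval 0.03 to 1.26, adjusted p = 0.109), in 7 of 8 mice. In complex IV, Cox6b1, a subunit on the intermembrane face of cytochrome c oxidase, stood at 74.4, 104.9, 158.8 and 83.1 CPM in N and at 85.3, 127.4, 299.6 and 226 CPM in NW. It stood at 52.6, 56.3, 131 and 118.7 CPM in HF and at 11.6, 244.6, 130.4 and 178.5 CPM in HFW. The lowest of all 16 values was that of HFW mouse 34, in which Cox6b1 had 1 tag. The mean WEPAK effect was 0.67 (SE 0.36, 95% interval −0.04 to 1.38, adjusted p = 0.152), in 6 of 8 mice. Both Uqcrfs1 and Cox6b1 met the count filter mainly through WEPAK mice, the groups where their means were higher. Their effects therefore add no support to a rise with WEPAK. Without HFW mouse 34 Cox6b1 (0.91, adjusted p = 0.0210) and Uqcrfs1 (0.81, adjusted p = 0.0393) both passed as higher, beside Ndufb9 and Atp5j2 as lower. In that run 8 members were tested and 343 genes passed over all tested genes. The mouse left out had the lowest HFW value of both Cox6b1 and Uqcrfs1, so these calls add no support of their own.

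Complex V held the other member that passed. Atp5j2 encodes the f subunit of the membrane part of ATP synthase. Its level was 580.1, 276.5, 450 and 315.6 CPM in N and 204.7, 195.4, 206 and 330.3 CPM in NW. It was 305.3, 319.2, 499.5 and 423.8 CPM in HF and 174, 262.1, 260.8 and 281.8 CPM in HFW. All HFW mice lay below all HF mice, and in the normal diet only NW mouse 20 reached into the N range. Mean levels were 406 ± 138 CPM for N and 234 ± 64.3 for NW, and 387 ± 91.8 for HF and 245 ± 48.1 for HFW (SD, n = 4 each). The mean WEPAK effect was −0.73 (SE 0.22, 95% interval −1.16 to −0.30, adjusted p = 0.0116, edgeR). It was −0.80 (SE 0.31, adjusted p = 0.0921) in NW against N and −0.66 (SE 0.30, adjusted p = 0.145) in HFW against HF. Thinned libraries gave −0.81 (adjusted p = 0.00737). The hepatocyte and endothelial markers named above moved beside this result in the same way, and their part in it was not tested.

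Atp5b, the catalytic beta subunit, did not share this direction. It stood at 148.8, 247.9, 251.5 and 249.2 CPM in N, at 307.1, 246.4, 243.4 and 243.4 CPM in NW, at 221.1, 194, 122.8 and 118.7 CPM in HF and at 232, 174.7, 260.8 and 328.8 CPM in HFW. HFW mouse 36 lay inside the HF range, and the other HFW mice lay above it. The mean WEPAK effect was 0.41 (SE 0.22, 95% interval −0.02 to 0.85, adjusted p = 0.148), in 8 of 8 mice, and it was 0.63 (SE 0.30, adjusted p = 0.166) in HFW against HF. Atp5b and Atp5j2 belong to the same enzyme, and only the fall of Atp5j2 passed the test. Whether both genes' effects differ from each other was not tested.

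**Figure D3:**
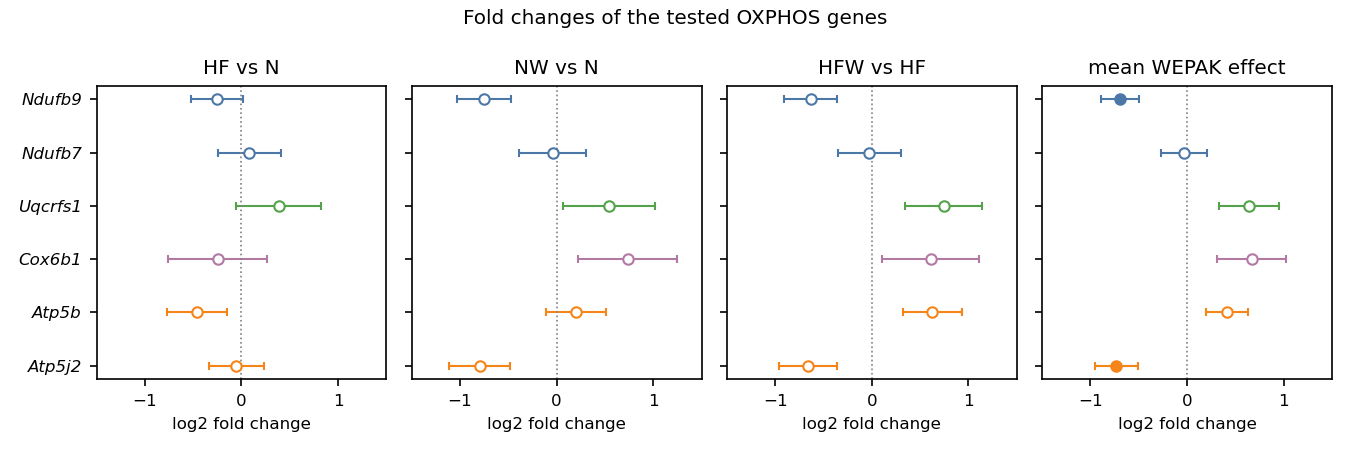
Log2 fold change (horizontal axis) of the 6 tested members in 4 contrasts, with bars of 1 SE and a dotted line at no change. Filled points passed an adjusted p of 0.05: Ndufb9 at −0.69 and Atp5j2 at −0.73 in the mean WEPAK effect, and none elsewhere.

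The high-fat diet was compared with the normal diet without WEPAK and with it. In HF against N 0 of the 6 tested members passed edgeR's test, beside 0.0956% of all tested genes, and 0 had an unadjusted p under 0.05, beside 103 of the 1046 genes. That background rests on 1 gene, and without N mouse 4 it was 31 genes, with 0 members among them. Atp5b had a log2 fold change of −0.46 (SE 0.31, adjusted p = 0.643), Ndufb9 −0.25 (SE 0.27) and Cox6b1 −0.25 (SE 0.51). Uqcrfs1 stood at 0.38 (SE 0.44), Ndufb7 at 0.08 (SE 0.33) and Atp5j2 at −0.06 (SE 0.29). The 95% interval of Atp5b ran from −1.08 to 0.16, so a moderate fall is inside what these mice allow. In HFW against NW 0 members and 0% of all tested genes passed, with 0 members at an unadjusted p under 0.05, beside 126 genes. There the members ran from −0.37 for Cox6b1 to 0.58 for Uqcrfs1. The mean effect of the high-fat diet over both comparisons also called 0 members, beside 0.574% of all tested genes, with 0 at an unadjusted p under 0.05, beside 215 genes. These 6 genes past the threshold became 107 without N mouse 4, again with 0 members. DESeq2 and limma-voom called 0 members in each of these comparisons.

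The other 76 members were below the count filter, so their values are described per mouse and not by that test. Of the 31 members with 10 or more tags, 3 had every HFW mouse above every HF mouse, beside 3.74% of the 4707 genes with that many tags. Ndufv1, the NADH-oxidizing flavoprotein subunit of complex I, had 2, 5, 2 and 1 tags in the HF mice and 6, 10, 5 and 11 in the HFW mice. On the normal diet it had 2, 5, 11 and 2 tags in N and 5, 10, 4 and 2 in NW, and these groups overlapped. In CPM, Ndufv1 was at 19.3 ± 9.53 in HF and 110 ± 45.3 in HFW (SD, n = 4 each). The others were Atp5d, the delta subunit of the F1 stalk, at 28.7 ± 11.0 CPM in HF and 67.6 ± 8.24 in HFW, and Uqcrq, a small complex III subunit, at 22.5 ± 15.1 and 59.5 ± 14.9. In the other direction Atp5j2 alone had all HFW mice below all HF mice, beside 3.7% of these genes.

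In NW against N, Cox6a1 had every NW mouse above every N mouse (3.76% of the genes with 10 or more tags) and Ndufb9 every NW mouse below (3.21%). Cox6a1 was at 44.6, 47.7, 26.5 and 49.8 CPM in N and at 68.2, 59.5, 74.9 and 52.1 CPM in NW. In HFW against NW, Ndufa6, an accessory subunit of complex I, lay lower in all HFW mice, where 1.36% of these genes did, and 0 members lay higher, beside 3.25%. Ndufa6 had 67.7 ± 34.7 CPM for N, 153 ± 40.7 for NW, 59.8 ± 28.8 for HF and 69.0 ± 26.01 for HFW (SD, n = 4 each), so the NW group had the highest mean, with N mouse 7 at 119.1 CPM inside its range. Without that mouse the filter, which then asks for tags in fewer mice, kept Ndufa6. It passed in NW against N at 1.65 (adjusted p = 0.0438, edgeR), in a run where 110 genes passed. Ndufa6 met the filter through the NW mice, the group where it was high, and the mouse left out had the highest N value. That call therefore adds no support to the difference. In HF against N no member with 10 or more tags had groups that did not overlap, beside 1.51% of such genes higher and 1.44% lower.

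When edgeR was run on all 10171 genes with any tag, without the count filter, 1 member passed in HFW against HF, where 1.04% of the genes passed. It was Ndufv1, higher by 2.12 on the log2 scale (SE 0.59, adjusted p = 0.0352). In that fit Ndufb9 and Atp5j2 were again the only members of 56 that passed in the mean WEPAK effect, beside 2.5% of the genes. The other core and accessory subunits with 10 or more tags did not pass. Cox5a, a matrix-side subunit of complex IV, had −1.12 (SE 0.39, adjusted p = 0.109), and Uqcrq had 1.03 (SE 0.47, adjusted p = 0.370). The median over the 31 members with 10 or more tags was 0.29 in the mean WEPAK effect, with 18 of 31 above 0. Over the 4707 genes with as many tags it was −0.07, with 46.1% above 0. In HF against N the medians were −0.01 for the members and 0.15 for all these genes, so fold changes of that unfiltered fit are read against this shift.

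Tags were also pooled by complex, as sums without a test, because few genes had enough tags alone. Over all 82 members the pool was 3385 ± 341 CPM for N, 2958 ± 126 for NW, 2899 ± 189 for HF and 2831 ± 406 for HFW (SD, n = 4 each). Every NW mouse (2849 to 3090) and every HF mouse (2637 to 3043) lay below every N mouse (3128 to 3887). Of single genes with 10 or more tags, 3.21% lay lower in this way in NW and 1.44% in HF. How often sums of other genes part the groups was not tested, here or for the pools below. Without Ndufb9 the log2 ratio of NW to N went from −0.19 to 0.058, while that of HF to N was about as large as before (−0.22 with it and −0.20 without). The pool was then 2138 ± 156 for N, 2226 ± 262 for NW, 1855 ± 165 for HF and 2155 ± 417 for HFW, and each WEPAK or high-fat group overlapped with N. Complex I summed to 1810 ± 175 CPM for N, 1399 ± 226 for NW, 1538 ± 323 for HF and 1281 ± 164 for HFW. Without Ndufb9 it summed to 563 ± 132, 668 ± 91.0, 494 ± 50.4 and 604 ± 72.8, so that the WEPAK groups had the higher mean in place of the lower. Complex V summed to 869 ± 112 CPM in N and 697 ± 24.3 in NW, groups that did not overlap, and to 707 ± 45.3 in HF and 736 ± 114 in HFW. Without Atp5j2, complex V was at 463 ± 156 in N and 462 ± 67.9 in NW, which overlapped. In the high-fat diet leaving it out parted the groups instead, with 320 ± 60.3 in HF and 491 ± 82.4 in HFW (log2 ratio 0.62), which did not overlap. Complexes III and IV had higher means with WEPAK on each diet, with log2 ratios of 0.50 and 0.46 in HFW against HF and 0.29 and 0.32 in NW against N. Their groups overlapped, and complex III in NW against N turned to −0.12 without NW mouse 15.

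The 76 members below the filter, pooled, were lowest in HF. Their sum was 877.6, 924.9, 1046 and 1379 CPM in the N mice and 1058, 1096, 1498 and 1043 CPM in the NW mice. It was 894.8, 688.4, 851.7 and 881.6 CPM in the HF mice and 974.6, 1031, 1099 and 1212 CPM in the HFW mice. Every HFW mouse lay above every HF mouse, with means of 1079 ± 102 and 829 ± 95.5 CPM (SD, n = 4 each) and a log2 ratio of 0.38, while the N group overlapped with HF and with NW. In the fit without the filter, 17 of the 31 members with 10 or more tags were above 0 in HFW against HF and 14 below. Of the 4707 genes with as many tags 45.5% were above 0. These 31 members include the tested ones, which are not in this pool. Among the pooled genes, mean Ndufv1 was 19.3 CPM in HF and 110 in HFW, and mean Cox6a1 33.3 and 85.8. Atp5d had 28.7 and 67.6, and Uqcrq 22.5 and 59.5. Other pooled genes had the lower mean in HFW, among them Cox5a with 98.3 in HF and 51.1 in HFW. Sdhd had 87.8 and 62.2, and Uqcrc2 46.0 and 23.9. Ndufv1, Cox6a1, Atp5d and Uqcrq were not left out of the pool, so it does not show a shift shared by most of its genes. The same pool within complex V was 242 ± 38.8 CPM in HFW and 156 ± 21.0 in HF, and these mice did not overlap either. Within complex I it was 328 ± 64.2 in HFW and 206 ± 46.1 in HF, with HFW mouse 40 (253.7) inside the HF range. The low pools of complexes II, III and IV overlapped between HF and HFW. The HF libraries were deeper as a group than the HFW libraries. The endothelial markers parted HF (up to 352.1 CPM) from HFW (from 354.0 CPM) in the same direction, and the mean of the hepatocyte markers was 62462 CPM in HF and 76286 in HFW. The part of depth and of these markers in the sums was not tested.

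**Figure D4:**
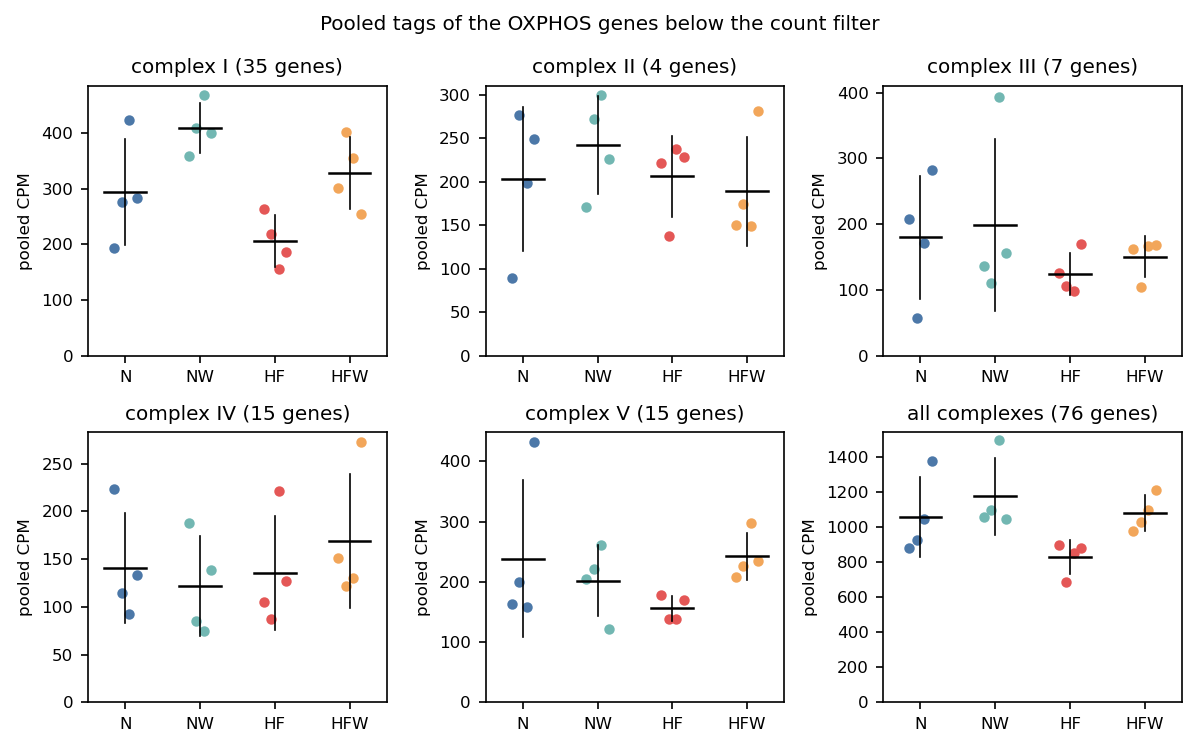
Summed level in CPM (vertical axis from 0) of the members below the count filter, by complex and over all complexes, for the 4 mice of each group with the mean and SD as horizontal and vertical lines. Over all complexes the 4 HFW mice sit between 974.6 and 1212, above the 4 HF mice at 688.4 to 894.8.

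The spread of the members between mice of 1 group was also measured. Against counting error, the chi-square per degree of freedom within groups was 5.42 for Ndufb9, 3.01 for Cox6b1, 2.55 for Ndufb7, 2.09 for Atp5j2, 1.60 for Uqcrfs1 and 1.03 for Atp5b, where a value near 1 is what counting alone gives. Atp5b therefore varied between mice of 1 group about as much as counting does, and Ndufb9 varied more than counting does. For the same relative spread this value grows with the number of tags, 1312 for Ndufb9 and 304 for Atp5b. It therefore does not rank the genes by how much they varied. Over the other 25 members with 10 or more tags the median was 1.38. Atp5s was the highest of these at 3.82, with 282.4 CPM in N mouse 8 and 47.7 to 89.3 CPM in the other N mice.

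Genes that work with the complexes were read from the same fit. Over all 1046 tested genes, 31.3% passed in the mean WEPAK effect, 11% in NW against N and 9.85% in HFW against HF. With 2 or 3 genes tested per list, the counts below are no result about a list. Of 29 listed assembly factors in the table, 24 had tags and 2 were tested, of which 1 passed. Lrpprc, an RNA-binding protein that stabilizes mitochondrial mRNAs, was lower in the mean WEPAK effect by −1.31 (SE 0.29, adjusted p = 0.00113) and in NW against N by −1.85 (SE 0.44, adjusted p = 0.00812). Of 17 genes of the TCA cycle, which supplies NADH and succinate, 3 were tested and 1 passed. Fh1, fumarate hydratase, was lower in the mean WEPAK effect by −1.17 (SE 0.29, adjusted p = 0.00342) and in HFW against HF by −1.60 (SE 0.41, adjusted p = 0.0114). Idh3b (0.40, adjusted p = 0.369) and Pdha1 (−0.42, adjusted p = 0.116) did not pass.

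Of 17 carriers, pores and other entry points for electrons, 2 were tested and both were higher with WEPAK on each diet. Over all tested genes 15.2% passed as higher in the mean WEPAK effect, and 2 genes do not describe the list. Slc25a5, which exchanges ADP and ATP across the inner membrane, had a mean WEPAK effect of 1.29 (SE 0.22, adjusted p = 8.03e-05). Etfa, a subunit of the flavoprotein that takes electrons from fatty acid oxidation, had 1.03 (SE 0.20, adjusted p = 0.000347). Whether the Slc25a5 tag also matches other transcripts was not tested. Of 16 regulators of mitochondrial biogenesis in the table, 13 had tags and 0 had enough for the test. For the subunits made from mitochondrial DNA 26 symbols and alternative names were looked up, and 0 were among the gene symbols used here. Of 9 partners and subunits in the table that the naming rule misses, 1 was tested. It was Usmg5, which did not pass (mean WEPAK effect 0.27, adjusted p = 0.535). Ndufa4l2 was also listed and was left out there as a member already counted.

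Promoters of the members were searched for the letters of 4 factors known to bind such genes, on both strands, in RefSeq windows (GRCm38.p6) of 250 bases before to 50 bases after a start. Windows were found for 69 members, 75 in all. The YY1 letters AAGATGGC were in 16% of the members' windows and in 2.75% of all 32851 windows, and Atp5j2 was among the members that had them. The NRF1 motif, a fixed palindrome of the letters A, C, G and T, was in 6.67% of the members' windows and in 0.971% of all, with Cox6a1 and Uqcrc1 among them. The ETS letters CCGGAAGT were in 6.67% and 3.89%, and the ERR alpha letters TCAAGGTCA in 2.67% and 0.423%. No motif contains another, and a match describes the window and shows no binding.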

How the data were processed

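Each SuperSAGE library came from the liver RNA of 1 mouse, and per the labels' protocols cDNA made from oligo-dT was cut with NlaIII and EcoP15I to give tags that were amplified by PCR. The deposited values are raw tag counts per RefSeq transcript and mouse, made by the authors, per the file headers. The tool that matched tags, its RefSeq release and its handling of ambiguous tags were not given in the sources used here. Molecular identifiers and batches are not named by the labels.

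Rows without a symbol (416, with 0.0729% of the tags) were left out and counts were summed per symbol. The members and lists were chosen with earlier results of these data known. edgeR 4.0.16 (R 4.3.3) was run on the counts with TMM scaling, its default filter by group (minimum count 10), and robust quasi-likelihood fitting of the 16 libraries together, each group having its own mean. P-values were adjusted over all 1046 genes by Benjamini-Hochberg at 0.05. Standard errors are approximate and were derived from the log2 fold change and F. Chi-square values for pairs of libraries within a group were 2.24 to 9.64 per degree of freedom, so none was taken as a duplicate. The scripts were tested on simulated data.

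Named were all members past the filter, with values in every mouse, the most abundant member per complex, tissue isoform pairs, members at 0, and list genes past the threshold. Members named in other sentences, among them Ndufv1, Atp5d, Uqcrq, Cox6a1, Ndufa6, Cox5a and Atp5s, were chosen after their values were seen. Alternatives were DESeq2 1.42.0 size factors and Wald test, limma-voom (limma 3.58.1), no filter, a minimum count of 20, a non-robust fit, the compared groups alone, RefSeq rows apart, and leaving out each mouse. Added after seeing the data were thinning to the smallest library, leaving out N mice 4 and 8, and leaving out the 10 most abundant genes.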

Additional observations from a re-analysis of the deposited data

Results flagged for a closer look

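Each value here lay far from the other 3 mice of its group, by Dixon's criterion for groups of 4. In 48 group checks of the 6 tested genes and the 6 pools, 6 values stood apart, and chance gives such a value in about 1 in 20 groups. Atp5b was at 148.8 CPM in N mouse 4, with the other N mice at 247.9 to 251.5, and at 307.1 CPM in NW mouse 11, with the other NW mice at 243.4 to 246.4. These values were 10 and 18 tags. Within groups Atp5b varied about as much as counting does (chi-square 1.03 per degree of freedom). Atp5j2 was at 330.3 CPM in NW mouse 20, with the others at 195.4 to 206. Ndufb7 was at 179 CPM in HF mouse 23, with the others at 311.2 to 337.9, and at 441.5 CPM in HFW mouse 40, with the others at 204.9 to 232. The pooled level of complex II was 137.7 CPM in HF mouse 25, with the others at 221.1 to 237.5.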

How the results depend on the processing

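Ndufb9 (−0.56 to −0.82) and Atp5j2 (−0.63 to −0.86) passed as lower in the mean WEPAK effect under every alternative run, with adjusted p up to 0.0372 and 0.0350. Leaving out each mouse gave 2 to 4 members called in the mean WEPAK effect, 0 to 1 in NW against N and 0 to 1 in HFW against HF, the highest counts without HFW mouse 34, N mouse 7 and HF mouse 28. In these runs 7 or 8 members were tested, and the genes called ran from 263 to 386, 31 to 178 and 40 to 150. Without the filter 1 member was called in HFW against HF. The cause of these changes was not tested. No paired analysis was possible because the mice of the 4 groups carry different numbers.

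Among the tested members, signs changed only in comparisons in which the gene had not passed. Atp5j2 in HF against N was 0.15 without the filter, 0.0814 with thinned libraries, 0.14 without N mice 4 and 8, and −0.20 to 0.17 when single mice were left out. Cox6b1 in HF against N ran from −0.45 to 0.0498 when single mice were left out. Ndufb7 in HF against N was −0.10 without N mice 4 and 8 and −0.0913 to 0.27 over single mice left out. In NW against N Ndufb7 was 0.025 with a minimum count of 20, 0.0129 with limma-voom and −0.19 to 0.14 over single mice left out, in HFW against HF it was −0.42 to 0.0702, and in the mean WEPAK effect −0.20 to 0.0517.

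Log2 ratios of the pools moved by more than the spread between mice only when the leading gene was left out or only members below the filter were summed. Within that spread, complex III went from 0.29 to −0.12 in NW against N without NW mouse 15, and from −0.21 to 0.17 in HF against N without N mice 4 and 8. Complex IV in HF against N went from −0.13 to −0.43 without HF mouse 28 and to 0.034 without HF mouse 25. Without its most abundant member, complex I was at 0.29 in HFW against HF and 0.25 in NW against N, and with members below the filter at 0.67 and 0.47, and at −0.51 in HF against N. Complex II was at 0.0405 in HFW against NW without Sdha. Complex IV was at −0.21 in NW against N both without Cox6b1 and with members below the filter. Complex V was, without Atp5j2 and below the filter, at −0.53 and −0.61 in HF against N and at 0.62 and 0.63 in HFW against HF. It was at −0.0016 in NW against N without Atp5j2 and at 0.26 in HFW against NW below the filter. All members together were at 0.22 in HFW against HF and 0.0584 in NW against N without Ndufb9. Below the filter they were at 0.38, 0.15 and, in HF against N, −0.35.

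Depth limits these data: 1 tag was worth 6.70 to 17.7 CPM of the unscaled library, so 76 members could not enter the test and a difference in them was often not detectable at this depth.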
